A study of Mus musculus with 111 samples.

Results

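The difference in gene expression between the right and left gastrocnemius muscle of mice with a cut Achilles tendon (tenotomy) was compared between day 14 and day 2 after surgery. Of the 111 arrays of the study, the 20 from tenotomy animals at these days were used, and each array held the RNA of 1 muscle. They came from 11 animals: 5 animals at day 2, each with both legs, and 6 at day 14, of which 4 had both legs, 1 the right leg alone and 1 the left leg alone. This gave 5 right and 5 left legs at each day and 9 complete pairs. All mice were 8-week-old males of strain C57BL/6, for which the labels name no allele, they moved freely in their cages after surgery, and different animals were sampled at each day, so no animal was followed over time. Legs were matched by the animal number in the labels, because the replicate numbers in the sample titles do not pair the legs of an animal.

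The sources conflict on which leg was operated. The design text has the right tendon severed and calls the left leg the untreated control, whereas the sample labels give the treatment tenotomy to the left legs and call the right legs controls. All values below are therefore right minus left on the log2 scale, and neither leg is called the operated one. Other arrays of the study were used as a reference: 14 from tenotomy animals at day 7 (7 pairs), 7 from naive mice, 3 and 8 from sham-operated mice at days 2 and 14, whose tendon was handled but not cut, and 37 from mice with a cast on the right hindlimb at these days.

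The gastrocnemius pulls on the heel through the Achilles tendon, and cutting the tendon removes its load. Unloaded muscle loses fibre mass through the ubiquitin-proteasome system and the lysosome, and its oxidative metabolism falls. In injured muscle and tendon, monocytes enter within days and become macrophages that clear debris, after which fibroblasts divide and lay down collagen-rich matrix that proteases then remodel.

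The arrays carried the marks of their tissue: the summed signal of 12 markers of skeletal muscle fibres was 102193 to 193895 in the 20 muscles. The precision of every value is limited by the 5 arrays in a group. The left day 2 leg of animal 33 stood apart, with a summed neutrophil marker signal of 3731.5 against 170.6 for the lowest of the left day 2 legs. As a sign of RNA quality, the log2 ratio of 3' over 5' probe sets of beta-actin was compared, and right legs exceeded left legs by 0.81 ± 0.32 (SD, n = 5 pairs) at day 2 and by 0.65 ± 0.48 (SD, n = 4) at day 14, and the exact two-sided permutation test of the difference between days gave p = 0.556. For Gapdh, the second gene with such probe sets, the right-minus-left difference of this ratio was 0.02 ± 0.06 (SD, n = 5 pairs) at day 2. At day 14 it was 0.07 ± 0.10 (SD, n = 4), and the same permutation test gave p = 0.349. The right day 14 leg of animal 38 had raised low signals.

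Fewer genes differed between the legs at day 14 than at day 2. Of 16029 tested genes, limma called 5894 (36.8%) different between the legs at day 2, with 3341 higher (20.8%) and 2553 lower (15.9%) on the right. At day 14 it called 3726 (23.2%), with 2168 higher (13.5%) and 1558 lower (9.72%). The change itself, day 14 minus day 2, was called for 1311 genes (8.18%), of which 460 rose (2.87%) and 851 fell (5.31%). This split depended on the scaling of the arrays: 697 of 1538 called changes (45.3%) were rises after quantile normalization, and 701 of 1302 (53.8%) after centring each array on the median of the tested genes. Closest to the threshold were Hs6st2, which fell by 0.62 (adjusted p = 0.0495), and Iqsec2, which was just outside at 0.60 (adjusted p = 0.05). In the whole-array distance from the naive mean, the right leg exceeded the left by 0.22 ± 0.07 (SD, n = 5 pairs) at day 2 and by 0.09 ± 0.05 (SD, n = 4) at day 14 (exact two-sided permutation p = 0.00794, the smallest that 126 arrangements can give).

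The levels that moved between the days were mostly those of the right legs. Among the 1311 called changes, the right legs differed more between days than the left legs for 1208 (92.1%). Right legs of day 14 differed from right legs of day 2 in 3557 genes (22.2%; 10.3% higher and 11.9% lower at day 14), left legs in 265 (1.65%; 0.861% higher and 0.792% lower) and sham muscles in 4 (0.0250%), although with only 3 sham muscles at day 2 (1139 genes reached an unadjusted p under 0.05 in the sham comparison). The left-leg count rested on single animals: it was 80 without animal 37, 114 without animal 38, 145 without 34, 158 without 8 and 173 without 33.

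The genes were sorted by when the legs differed. Early-only genes were called at day 2 and not at day 14, with a called change towards no difference. Late-only genes were called at day 14 and not at day 2, with a called change in the direction of day 14. Sustained genes were called at both days in the same direction, and reversed genes in opposite directions. There were 749 early-only genes (4.67% of those tested; 494 higher, 3.08%, and 255 lower, 1.59%, on the right at day 2), 136 late-only genes (0.848%; 90 higher, 0.561%, and 46 lower, 0.287%), 2706 sustained genes (16.9%; 1576 higher, 9.83%, and 1130 lower, 7.05%) and 33 reversed genes (0.206%; 11 higher, 0.0686%, and 22 lower, 0.137%, at day 2). With the animal as a fixed rather than a random block, which keeps the 9 complete pairs alone, the late-only count was 66. A further 2406 genes were called at day 2 and 851 at day 14 alone with no call for the change, and were placed in none of these classes.

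**Figure D1:**
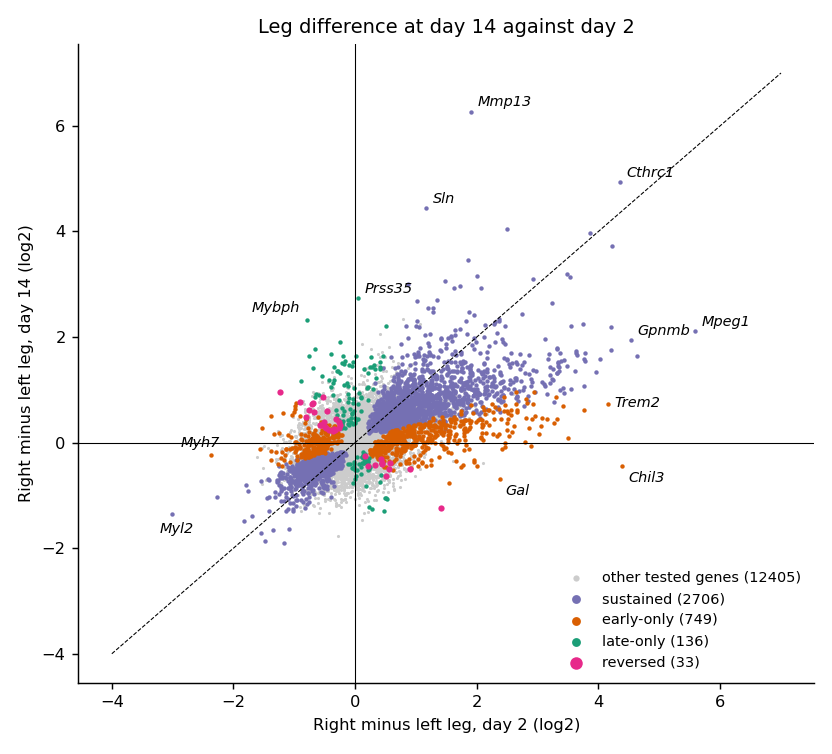
Each point is 1 of 16029 tested genes, with its right-minus-left log2 difference at day 2 on the x axis and at day 14 on the y axis, coloured by class; the dashed line marks equal differences. Mpeg1 and Chil3 lie far to the right of the line, and Mmp13, Sln, Mybph and Prss35 above it.

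Day 7, from 7 further pairs that the sorting did not use, lay between the days for most classes. The median difference of early-only genes higher on the right was 0.94, 0.35 and 0.10 at days 2, 7 and 14, and 276 of these 494 genes were called higher at day 7 (18.4% of all tested genes were). For early-only genes lower on the right the medians were -0.61, -0.24 and -0.004, with 134 of 255 called lower at day 7 (14.6% of all). Late-only genes higher on the right had medians of -0.12, 0.39 and 0.98, and 46 of 90 were called at day 7. The day 7 calls included 1444 of the 1576 sustained genes higher on the right and 1034 of the 1130 lower ones. Relative to the naive mean, the median early-only gene higher at day 2 stood at 0.86 in right legs at day 2 and 0.13 at day 14, and at -0.10 and 0.04 in left legs.

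**Figure D2:**
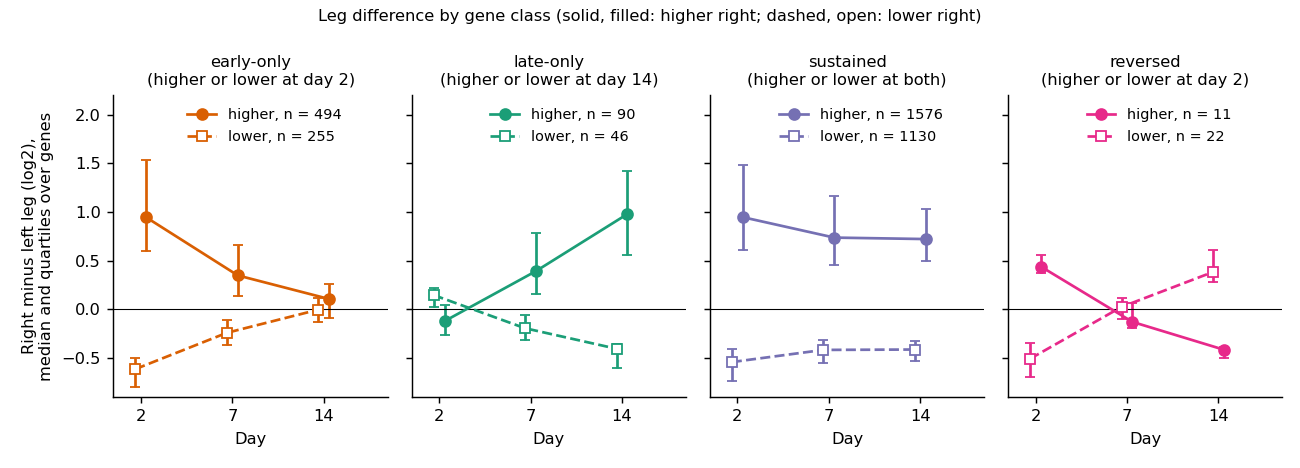
Median right-minus-left log2 difference (points) with quartiles over genes (bars) at days 2, 7 and 14 for the 4 classes, split by direction. Days 2 and 14 chose the members and day 7 did not: early-only genes higher on the right stand at 0.94, 0.35 and 0.10, and late-only ones at -0.12, 0.39 and 0.98.

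Macrophage and monocyte markers had the lowest median change of the 45 gene lists, which were chosen with earlier results of these data known. All 30 tested markers of these cells were higher on the right at day 2 (20.8% of all genes were), 26 were still higher at day 14 (13.5% of all), and the difference fell for 28 of 30 (5.31% of all) and rose for none. The median difference of the list was 3.27, 1.74 and 1.34 at days 2, 7 and 14, against 0.025, -0.002 and 0.0181 over all tested genes. Their mean level in right legs stood 2.97 ± 0.17 (SD, n = 5) above naive at day 2 and 0.92 ± 0.30 (SD, n = 5) at day 14, whereas left legs stood at -0.28 ± 0.37 and -0.34 ± 0.23 (SD, n = 5 each). In bulk muscle, fewer cells of a type and less RNA per cell cannot be told apart.

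Values per leg are listed in the order of animals 7, 8, 10, 33 and 37 at day 2, and at day 14 as 11, 12, 35, 36 and 38 for right and 12, 34, 35, 36 and 38 for left legs. Mpeg1, a pore-forming protein of macrophages, had signals of 1126, 1019, 935, 1308 and 1429 in the 5 right legs at day 2 and of 147, 219, 92.9, 87.1 and 81.2 at day 14. The left legs gave 41.4, 4.03, 22.6, 41 and 14.1 at day 2 and, at day 14, 24.2, 32.6, 33.8, 12.6 and 21.9. All right legs lay above all left legs at each day, and all right legs of day 14 below those of day 2. Its difference was 5.59 at day 2 and 2.11 at day 14 and fell by 3.48 (SE 0.54, adjusted p = 1.95e-06). The sustained but smaller differences included the lysosomal glycoprotein Gpnmb (4.54 and 1.94), the galectin Lgals3 (4.20 and 2.19), the lysosomal macrophage marker Cd68 (3.55 and 1.02) and Ms4a7, a membrane protein of macrophages (4.64 and 1.63), each with a called fall of 2.02 or more.

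Other macrophage genes were called at day 2 and not at day 14, which does not show that no difference was left. Chil3, a chitinase-like protein secreted by macrophages and neutrophils, had right-leg signals of 369.6, 320.3, 197, 434 and 446 at day 2 and 0.388, 6.97, 2.93, 3.11 and 2.35 at day 14. Left legs had 13.7, 4.46, 7.53, 159.5 and 0.322 at day 2 and, at day 14, 7.22, 7.32, 6.2, 7.89 and 0.918. The day 2 groups did not overlap, with the left leg of animal 33, at 159.5, nearest to the right legs, and the groups overlapped at day 14. The difference fell by 4.83 (SE 0.98, adjusted p = 0.000281), from 4.38 to -0.45. Trem2, a lipid-sensing receptor of macrophages, was 96.4 to 177 in right legs at day 2 and 1.76 to 15.2 at day 14, against 2.16 to 3.96 and 2.11 to 4.02 in left legs. It fell by 3.43 (SE 0.42, adjusted p = 2.17e-09). Its probe sets disagreed, and the mean over them fell by 1.43 (adjusted p = 0.0147). Other early-only immune genes, not all particular to macrophages, were the complement receptor C5ar1 (3.26 to 0.38), the nucleic acid sensor Tlr13 (3.31 to 0.45) and Ms4a6d (3.76 to 0.62). The leukocyte adhesion receptors Ly9 (2.90 to -0.06) and Cd84 (3.42 to 0.70) and the gene Slfn4 (3.03 to 0.17) were early-only as well. Ly9 was dim, with a mean signal of 4.1 over all arrays, close to the constant of 3.982 added before the log. Ms4a6d remained higher on the right in every pair, at 0.73 to 2.88 at day 7 and 0.555 to 0.94 at day 14.

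Chemokines, the secreted proteins that draw leukocytes, split by member. Of 21 tested chemokines and receptors the difference fell for 8 (5.31% of all genes fell) and rose for none. On the right 12 were higher at day 2 (20.8% of all genes were) and 6 at day 14 (13.5% of all). Ccl2, the main attractant of monocytes, had right-leg signals of 97.9, 70.3, 47.9, 101 and 40.4 at day 2 and 23.1, 6.17, 9.12, 2.44 and 4.56 at day 14. Its left legs gave 3.2, 3.75, 11.8, 4.43 and 2.08 at day 2 and, at day 14, 16.4, 2.02, 2.32, 2.15 and 3.47. The legs were separate at day 2 and overlapped at day 14. Ccl2 fell by 2.60 (SE 0.64, adjusted p = 0.00296). Ccl7 (2.41 to -0.12) and Ccl9 (2.92 to 0.74) were early-only as well. The receptor Ccr1, for several inflammatory chemokines, was 84.6 to 163 in right legs at day 2 and 7.94 to 17.6 at day 14, when left legs read 5.87 to 21.8, and fell by 3.40 (SE 0.49, adjusted p = 2.27e-07). Ccr2, the receptor of Ccl2, was sustained and smaller at day 14 (3.63 and 1.73). Ccl8, in contrast, was called at both days (2.37 and 2.31) with a change of -0.07 (adjusted p = 0.969), whose sign turned under quantile normalization and centring.

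Complement and antigen presentation followed different courses. The 3 chains of the complement starter C1q were sustained and smaller at day 14, with C1qb at 3.34 and 1.46, and properdin (Cfp), which stabilises the complement convertase, was early-only (2.61 to 0.31). Altogether the difference fell for 6 of 13 complement genes (5.31% of all genes) and rose for 1 (2.87% of all). The 7 tested MHC class II genes, which present antigen to helper T cells, were higher on the right at both days (20.8% and 13.5% of all genes were). Their medians were 2.17 and 1.45, with 1 called fall, that of the invariant-chain protease Ctss. The invariant chain Cd74 stood at 2.42 and 1.96 (change -0.46, adjusted p = 0.492). Of 19 MHC class I and interferon-response genes, 18 were higher at day 2 and 7 at day 14. Of the 19, 5 fell (5.31% of all genes did), among them the peptide transporter Tap1 (1.58 to 0.44).

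Of the markers of other leukocytes, few had a called change (5.31% of all genes fell and 2.87% rose). Of 13 neutrophil markers 1, the cytokine receptor Csf3r, fell (2.39 to 0.45), a call lost in 10 alternative settings. Summed neutrophil marker signals were 314.0 to 750.8 in right legs at day 2, 123.8 to 200 in right legs at day 14 and 159.7 to 233.3 in left legs at day 14. Right legs did not overlap between the days, and their mean log2 level from naive was 0.25 and -0.73. Taken singly, 2 of the 13 neutrophil markers were called lower in right legs at day 14 than at day 2, near the 11.9% of all genes. Of 12 T, B and NK cell markers 1, the NK receptor subunit Klrd1, fell (1.90 to 0.71), a call lost in 15 settings. The part of these cells in the other results was not tested.

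**Figure D3:**
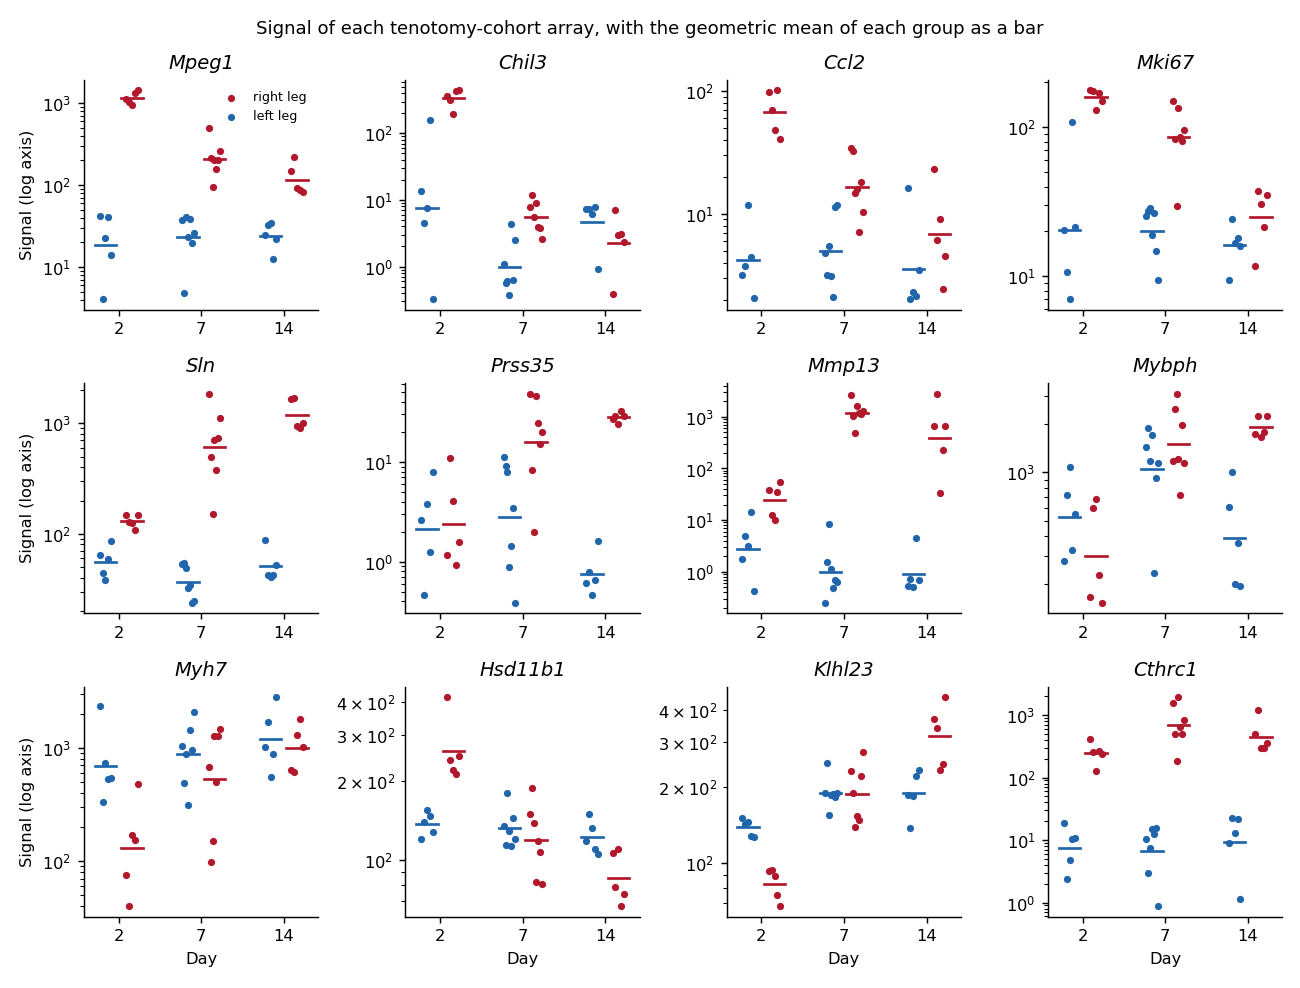
Deposited signal (log axis) of 12 genes in each right (red) and left (blue) leg of the tenotomy animals at days 2, 7 and 14, with the geometric mean of each group as a bar. Mpeg1, Chil3, Ccl2 and Mki67 are highest in right legs at day 2, Sln, Prss35, Mmp13 and Mybph in right legs at days 7 or 14, and Hsd11b1 and Klhl23 change sides between days 2 and 14.

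Dividing-cell genes were largely an early difference. Of 26 cell cycle and mitosis genes, 21 were higher on the right at day 2 (20.8% of all genes were), 4 at day 14, near the 13.5% of all genes, and 13 fell (5.31% of all). Of 24 DNA replication genes, 22 were higher at day 2, 4 at day 14, and 14 fell, with no member of these lists rising. The proliferation marker Mki67 gave 177, 176, 130.1, 169 and 149 in right legs at day 2 and 11.7, 37.3, 30.7, 21.4 and 35.3 at day 14. In left legs it gave 20.4, 10.7, 7.01, 108 and 21.5 at day 2 and, at day 14, 9.44, 24.2, 16.6, 17.9 and 15.9. The left day 2 leg of animal 33, at 108, was again the high one, and right and left legs overlapped at day 14. Mki67 fell by 2.10 (SE 0.52, adjusted p = 0.00332), and by 2.61 without animal 33, and the call was lost with the fixed block (-1.78, adjusted p = 0.0547). The replication factor Gins2 was 14.3 to 47.1 in right legs at day 2 and 2.72 to 8.11 at day 14, with left legs at 3 to 6.98 and 2.04 to 9.18, and fell by 1.99 (SE 0.44, adjusted p = 0.000932). Rrm2, the regulated subunit of ribonucleotide reductase, was sustained (2.65 and 0.85), and its difference fell by 1.80 (SE 0.41, adjusted p = 0.00136). Without animal 33 the falls numbered 15 of 26 cell cycle and 12 of 24 replication genes.

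Endoplasmic reticulum chaperones, which fold secreted proteins and are induced when unfolded proteins build up, were mostly an early difference. Of 21 tested members, 16 were higher on the right at day 2 (20.8% of all genes were) and 3 at day 14, near the 13.5% of all genes. The difference fell for 13 (5.31% of all) and rose for none. Of the 13, 11 were early-only, as were 494 of the 851 called falls over all genes. Sdf2l1, a cofactor of the chaperone BiP, had right-leg signals of 134, 125, 84.3, 129.9 and 89.5 at day 2 and 33.7, 52.1, 36.8, 31.5 and 42.9 at day 14. Its left legs read 40.9, 49.1, 43.1, 48.6 and 51.9 at day 2 and, at day 14, 26.5, 36.4, 46, 41.9 and 41.2. Every right leg exceeded every left leg at day 2, and the groups overlapped at day 14. Sdf2l1 fell by 1.14 (SE 0.30, adjusted p = 0.00679). The luminal chaperones Hsp90b1 (1.19, 0.56 and 0.34 at days 2, 7 and 14), Hspa5 or BiP (0.85, 0.39 and 0.24), Pdia6, a disulfide isomerase (0.81, 0.32 and 0.00), and the lectin chaperones Calr (0.64, 0.28 and 0.16) and Canx (0.66, 0.37 and 0.10) were early-only and had intermediate differences at day 7. The disulfide isomerase Pdia3 stayed higher (1.68 and 0.73) and fell by 0.95 (SE 0.26, adjusted p = 0.00891), a call lost with the mean of its probe sets (-0.56, adjusted p = 0.19). After centring the arrays on their median, 7 of the 13 falls were called.

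The promoters of the genes of this list were searched for the endoplasmic reticulum stress response element, a composite site bound by NF-Y and ATF6. The list was made of genes of the same stress response, so a high share of matches in it is not a result of these data. The letters searched were CCAAT, then any 9 bases, then CCACG, on both strands, within the 250 bases before the RefSeq gene start (assembly GRCm38.p6). They occurred in 37 of 32851 windows (0.113%), which is 35 of 27025 genes (0.13%). In the chaperone list they occurred in 7 of 19 members with a window (36.8%). These were 6 of the 12 whose difference fell and 1 of the other 7 (Dnajc3, change -0.23, adjusted p = 0.45). The 6 windows are shown because they are the promoters of early-only genes that hold the element; they were picked by the match, after the expression values were known. Each runs 5' to 3' along its gene, with the fixed letters of the element in capitals. A match describes the letters only.
Hspa5: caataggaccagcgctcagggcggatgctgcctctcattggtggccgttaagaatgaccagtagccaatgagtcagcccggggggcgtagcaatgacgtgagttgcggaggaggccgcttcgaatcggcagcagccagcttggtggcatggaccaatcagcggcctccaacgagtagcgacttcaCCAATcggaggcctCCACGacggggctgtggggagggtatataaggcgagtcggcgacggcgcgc
Hsp90b1: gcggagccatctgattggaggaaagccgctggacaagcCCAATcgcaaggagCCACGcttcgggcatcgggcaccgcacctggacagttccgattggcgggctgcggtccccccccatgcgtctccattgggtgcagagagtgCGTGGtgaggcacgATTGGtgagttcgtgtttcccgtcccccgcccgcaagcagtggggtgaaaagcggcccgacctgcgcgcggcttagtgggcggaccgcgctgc
Calr: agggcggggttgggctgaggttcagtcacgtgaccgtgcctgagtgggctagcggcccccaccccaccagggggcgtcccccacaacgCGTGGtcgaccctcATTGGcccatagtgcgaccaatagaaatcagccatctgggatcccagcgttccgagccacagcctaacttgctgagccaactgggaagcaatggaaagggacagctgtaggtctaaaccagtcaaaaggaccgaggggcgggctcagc
Canx: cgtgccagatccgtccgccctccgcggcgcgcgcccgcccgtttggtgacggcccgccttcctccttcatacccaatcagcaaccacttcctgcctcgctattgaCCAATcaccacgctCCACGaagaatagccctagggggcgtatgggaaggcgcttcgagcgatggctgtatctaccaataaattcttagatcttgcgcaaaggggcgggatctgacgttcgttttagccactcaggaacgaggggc
Pdia6: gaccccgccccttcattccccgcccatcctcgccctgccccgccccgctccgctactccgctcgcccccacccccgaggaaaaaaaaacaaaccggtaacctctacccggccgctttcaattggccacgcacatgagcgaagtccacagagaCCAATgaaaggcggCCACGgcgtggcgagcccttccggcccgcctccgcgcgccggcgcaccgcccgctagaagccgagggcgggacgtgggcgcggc
Creld2: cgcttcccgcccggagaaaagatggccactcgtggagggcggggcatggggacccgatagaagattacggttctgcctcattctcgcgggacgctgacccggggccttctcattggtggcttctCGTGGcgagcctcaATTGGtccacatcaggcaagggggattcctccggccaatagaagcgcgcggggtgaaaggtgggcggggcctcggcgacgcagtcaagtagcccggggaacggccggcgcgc
The windows lie at chr2:34771840-34772089, plus strand (Hspa5), chr10:86705445-86705694, minus strand (Hsp90b1), chr8:84846932-84847181, minus strand (Calr), chr11:50325674-50325923, minus strand (Canx), chr12:17266339-17266588, plus strand (Pdia6) and chr15:88819396-88819645, plus strand (Creld2, a luminal protein of the same response). Hsp90b1 holds 2 matches, on opposite strands, and each of the others holds 1.

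Lysosomal genes were higher on the right at both days and less so at day 14. Of 27 tested members, 22 were higher at day 2 (20.8% of all genes were) and 16 at day 14 (13.5% of all). The difference fell for 17 (5.31% of all) and rose for 1 (2.87% of all). The cysteine proteases Ctss (3.96 and 1.34) and legumain, Lgmn (3.21 and 1.28), had the largest falls of the list. The exception was Ctsk, the collagen-degrading cathepsin of osteoclasts and fibroblasts. Ctsk signals were 258, 176, 106, 120.3 and 129 in right legs at day 2 and 643, 813, 413, 528 and 359.6 at day 14. Left legs held 61.3, 33.7, 44.6, 82.1 and 46 at day 2 and, at day 14, 51.6, 64.2, 67.8, 71.7 and 46.2. Right legs exceeded left legs at each day, and all right legs of day 14 lay above those of day 2. Ctsk rose by 1.59 (SE 0.37, adjusted p = 0.00183).

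Of 19 antioxidant enzymes 8 fell and 1 rose, against 5.31% and 2.87% of all genes, and 10 had no called change. Sulfiredoxin, Srxn1, which repairs oxidised peroxiredoxins, was 429.7, 562, 619, 684 and 809 in right legs at day 2 and 154, 171, 185, 236 and 213 at day 14. Left legs were 217, 160.1, 211, 138 and 187 at day 2 and, at day 14, 123, 145, 169, 129 and 153. Right and left legs were separate at day 2 and overlapped at day 14. Srxn1 fell by 1.33 (SE 0.28, adjusted p = 0.000538). Haem oxygenase, Hmox1, was early-only by its calls (2.94 to 0.96), although every right leg still lay above every left leg at day 14. The mitochondrial superoxide dismutase Sod2 was the member that rose (-0.82 to -0.45). The Sod2 call was lost with the fixed block (adjusted p = 0.136) and without animal 7 or 35, and that of Hmox1 without animal 7 (adjusted p = 0.0511). The macrophage marker level of right legs fell over the same days, from 2.97 to 0.92 above naive, and its part in the cell cycle, chaperone, lysosomal and antioxidant values was not tested.

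The genes of muscle protein breakdown moved by smaller amounts. Among 35 subunits of the 26S proteasome, 15 were higher (20.8% of all genes were) and 1 lower (15.9% of all) on the right at day 2. At day 14 none were higher (13.5% of all) and 5 lower (9.72% of all). The difference fell for 8 (5.31% of all) and rose for none. The day 2 direction depended on scaling: after centring, 3 subunits were higher and 11 lower at day 2, and 3 fell, whereas 19 fell after quantile normalization. Psma5, a subunit of the proteolytic core, had 1452, 1511, 1346, 1473 and 1317 in right legs at day 2 and 702, 752, 683, 871 and 859.6 at day 14. Its left legs had 849.7, 851, 714, 821 and 842 at day 2 and, at day 14, 832, 679.6, 816, 817 and 819. The right legs of day 2 stood above all other groups, which overlapped with one another. Psma5 fell by 0.84 (SE 0.16, adjusted p = 8.95e-05). In the separate comparison of right legs between days, 28 of 35 subunits were lower at day 14 (11.9% of all genes were).

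Ubiquitin ligases of muscle wasting gave small changes. Trim63 (MuRF1) gave 2197, 2303, 3750, 2966 and 3690 in right legs at day 2 and 1461, 1206, 1332, 1316 and 1317 at day 14. Left legs gave 1867, 1610, 2398, 2034 and 3241 at day 2 and, at day 14, 2037, 1396, 1796, 1738 and 1701. The legs overlapped at each day, and the right legs of day 14 lay below those of day 2. Trim63 fell by 0.81 (SE 0.24, adjusted p = 0.0222), a call lost in centring (adjusted p = 0.0649) and without animal 10, 33 or 12 (adjusted p = 0.0528, 0.0505 and 0.0717). Fbxo32 (atrogin-1), at 0.47 and -0.33, did not pass (change -0.80, adjusted p = 0.199). Over 27 muscle ubiquitin ligases and adaptors, 2 rose and 1 fell (2.87% and 5.31% of all genes did).

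Early-only genes lower on the right included genes of the muscle fibre. Myh7, the slow myosin heavy chain, had 75.3, 39.9, 168, 152 and 478 in right legs at day 2 and 640.4, 616, 1299, 1794 and 1016 at day 14. Left legs had 2325, 333, 739, 526 and 536 at day 2 and, at day 14, 1014, 1674, 556, 887 and 2787. Right and left legs overlapped at each day, and right legs of day 14 lay above those of day 2. Myh7 rose by 2.13 (SE 0.57, adjusted p = 0.00747), a call lost without animal 7 (1.5, adjusted p = 0.101), 35 (1.76, adjusted p = 0.0586) or 36 (1.81, adjusted p = 0.0521), with only the 20 arrays (adjusted p = 0.0652) and with the fixed block (adjusted p = 0.07). Of 17 slow fibre proteins, 4 rose and none fell (2.87% of all genes rose), and with the fixed block 1 rose (331 of 16029 genes did). When right legs were set against sham muscles in place of left legs, 13 rose (970 of 16029 genes did). That setting rests on only 3 sham muscles at day 2.

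Few energy genes had a called change. Phkg1, the catalytic subunit of the kinase that activates glycogen phosphorylase, gave 981, 1387, 1306, 977 and 895 in right legs at day 2 and 1983, 1665, 1705, 1739 and 2326 at day 14. Left legs gave 1780, 2289, 2115, 2083 and 2381 at day 2 and, at day 14, 1897, 1944, 2161, 2055 and 1911. All right legs lay below all left legs at day 2, and the legs overlapped at day 14. Phkg1 rose by 0.86 (SE 0.14, adjusted p = 5.93e-06). Its partner subunit Phkb was early-only as well (-0.78 to -0.06). Of 21 genes of glycolysis and glycogen use, 19 were lower at day 2 (15.9% of all genes were) and 5 at day 14 (9.72% of all), but the change was called for 2. Etfb, which passes electrons from fatty acid oxidation to the respiratory chain, was 1029 to 1210 in right and 1918 to 2227 in left legs at day 2, and 1853 to 2267 and 2075 to 2747 at day 14. Etfb rose by 0.68 (SE 0.12, adjusted p = 1.68e-05). Of 12 defining markers of muscle fibres 6 were lower at day 2 and none at day 14, and the mean right-minus-left difference of these markers was -0.85 to -0.15 in the day 2 pairs and -0.40 to 0.00 in the day 14 pairs. Glycolysis genes had mean differences of -0.86 to -0.39 and -0.39 to 0.00 in the same pairs. Macrophage markers had mean differences of 2.84 to 3.76 at day 2 and, at day 14, 0.73 to 1.74. The part of the makeup of the muscles in the values of the energy genes was not tested.

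Col22a1, a collagen of the muscle-tendon junction, was the 1 collagen chain called lower on the right at day 2, and it was early-only. Its signals were 41, 30.2, 60.2, 28.9 and 46.1 in right legs at day 2 and 172, 104, 159, 211 and 142 at day 14. In left legs they were 132, 137, 122, 112 and 115 at day 2 and, at day 14, 117, 95.2, 117, 117 and 197. Right legs lay below left legs at day 2 and overlapped with them at day 14. Col22a1 rose by 1.82 (SE 0.31, adjusted p = 1.6e-05), and at day 7 the difference was -1.29.

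Late-only genes higher on the right came from several gene families. Prss35, a secreted protease-like protein, gave 1.16, 11.1, 4.06, 0.935 and 1.58 in right legs at day 2 and 26.7, 29, 23.8, 32.5 and 28.8 at day 14. Left legs gave 2.59, 0.459, 3.83, 1.25 and 7.92 at day 2 and, at day 14, 0.612, 0.791, 0.461, 0.652 and 1.6. The legs overlapped at day 2 and were separate at day 14. Prss35 rose by 2.69 (SE 0.46, adjusted p = 1.61e-05). Its low left signals lie under the constant of 3.982 added before the log, and with a constant of 16 the rise was 1.36 (adjusted p = 1.54e-06).

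Mybph, a thick-filament protein of the sarcomere, had 166, 596, 687, 229.8 and 153 in right legs at day 2 and 1747, 2236, 1674, 1800 and 2260 at day 14. Its left legs had 280.0, 721, 1084, 327 and 548 at day 2 and, at day 14, 612, 1011, 202, 362 and 195. All right legs of day 14 exceeded all other legs of these days. Mybph rose by 3.12 (SE 0.62, adjusted p = 0.000202), from -0.80 (adjusted p = 0.155) to 2.33. Tppp3, a tubulin-binding protein found in tendon sheath progenitors, was 125 to 304 in right legs at day 2 and 829.7 to 1319 at day 14, against 196 to 364 and 258 to 388 in left legs. Tppp3 rose by 2.08 (SE 0.34, adjusted p = 7.04e-06). Further late-only genes higher on the right were the water channel Aqp5 (-0.65 to 1.78), the T-type calcium channel Cacna1g (-0.25 to 1.91), the retinoic acid-binding Crabp1 (-0.35 to 1.44), the matrix protein Edil3 (0.50 to 2.2) and the B-cell gene Fcrla (-0.68 to 1.42). Edil3 lost its call with the fixed block (adjusted p = 0.0865), with the mean of its probe sets (adjusted p = 0.0787) and without animal 12 (adjusted p = 0.061), and Fcrla without animal 37 (adjusted p = 0.056) and against sham muscles (adjusted p = 0.776).

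Mkx, the Mohawk transcription factor of tendon cells, was late-only (0.21, 1.32 and 1.32 at days 2, 7 and 14), and rose by 1.11 (SE 0.28, adjusted p = 0.00414), a call lost with the fixed block (1.02, adjusted p = 0.11). Of 10 tendon cell markers, 5 were higher on the right at day 2 (20.8% of all genes were) and 7 at day 14 (13.5% of all). Tenomodulin, Tnmd, stood at 1.20 and 2.54 with a change of 1.35 (adjusted p = 0.0636), and Scx, the other tendon transcription factor listed, at 0.44 and 0.52. The joint lubricant Prg4 fell instead (3.13 to 1.06). The summed tendon marker signal was 5694.1 to 10569.8 in right legs at day 2 and 9257.9 to 15563.3 at day 14, with left legs at 1417.3 to 5451.7 and 2123.4 to 6307.8. Whether tendon tissue taken with the muscle contributed was not tested.

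Of the 46 late-only genes lower on the right, 21 were called lower at day 7 (14.6% of all genes were). Cd36, the fatty acid transporter, was 700.5 to 1043 in right and 469 to 1056 in left legs at day 2, and 592 to 861 and 812 to 1320 at day 14, so that the legs overlapped at both days. Cd36 fell by 0.72 (SE 0.19, adjusted p = 0.00707), a call lost without animal 37 (adjusted p = 0.0724), without animal 38 (adjusted p = 0.0785), with only the 20 arrays (adjusted p = 0.0716) and with the fixed block (adjusted p = 0.162). The 2 proteasome subunits Psmb2 (0.10 to -0.47) and Psmd1 (0.15 to -0.23) were also in this class. The spindle checkpoint kinase Bub1 (0.52 to -1.07) lost its call in 8 settings.

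Matrix genes were among the sustained differences. All 20 tested matricellular and healing-matrix genes were higher on the right at both days (20.8% and 13.5% of all genes were). Their medians were 2.18 and 1.76, and the difference fell for 1 of them. Of 19 collagen chains, 17 were higher at day 2 and 18 at day 14, and 2 rose. Cthrc1, a secreted protein of activated fibroblasts, had 421, 259, 129.6, 269 and 236 in right legs at day 2 and 501, 1205, 300.5, 301 and 354 at day 14. Its left legs read 18.8, 2.4, 4.89, 10.5 and 10.7 at day 2 and, at day 14, 9.13, 22.9, 12.9, 21.9 and 1.15. Every right leg exceeded every left leg at both days, and the right legs of the 2 days overlapped. The difference was 4.35, 5.87 and 4.94 at days 2, 7 and 14, with a change of 0.58 (SE 0.69, adjusted p = 0.703).

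Periostin, Postn, which organises collagen in healing tissue, was 2044 to 4167 in right legs at day 2 and 978 to 3550 at day 14, with left legs at 68.3 to 395 and 91.6 to 123. Its change was -0.49 (SE 0.60, adjusted p = 0.713). The fibrillar collagens Col1a1 (1.63 and 1.53) and Col3a1 (1.64 and 1.73), tenascin C, Tnc (2.14 and 2.23), the fibril-associated Mfap4 (3.86 and 3.96), the metalloprotease inhibitor Timp1 (3.48 and 3.19) and the Wnt modulator Sfrp2 (2.92 and 3.09) had called differences at both days and no called change. The standard errors of these changes were 0.30 to 0.70, so the missing call does not show equal differences. Lox, which crosslinks collagen, was sustained and fell (3.74 to 2.24), a call lost without animal 36 (adjusted p = 0.0511).

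The sustained differences that grew numbered 20 higher on the right and 1 lower, against 289 and 56 that shrank. Mmp13, the collagenase that opens fibrillar collagen, showed the largest rise among them. Its right-leg signals were 37.7, 12.6, 9.84, 35.1 and 55.1 at day 2 and 680.3, 2812, 32.9, 228 and 656 at day 14. Left legs gave 1.76, 4.99, 3.18, 14.4 and 0.427 at day 2 and, at day 14, 0.535, 0.714, 0.501, 4.4 and 0.701. The legs overlapped at day 2 through the left leg of animal 33 and were separate at day 14, where the right legs ran from 32.9 to 2812. The difference was 1.91, 7.80 and 6.27 at days 2, 7 and 14, and rose by 4.36 (SE 0.84, adjusted p = 0.000127) from day 2 to day 14. The other matrix proteases that rose were Mmp14, the membrane-bound activator (1.63 to 2.93), and the gelatinase Mmp2 (1.27 to 2.56). The Mmp14 call was lost with the mean of its probe sets (adjusted p = 0.102) and without animal 12 (adjusted p = 0.0525). Of 22 matrix proteases and inhibitors 5 rose (2.87% of all genes did) and 3 fell (5.31% of all), the falls being Adam8 (2.84 to 0.78), Adamts4 (1.80 to 0.13) and the urokinase receptor Plaur (0.94 to 0.10). Adamts4 lost its call in 10 of 25 alternative settings, among them the fixed block (adjusted p = 0.188), the 20 arrays alone (adjusted p = 0.087) and a larger added constant (adjusted p = 0.0748).

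Col11a1, a fibril-nucleating collagen of cartilage and immature tendon, had 143, 94.3, 48.6, 83.6 and 64.2 in right legs at day 2 and 335, 908, 234, 277 and 227 at day 14. Left legs had 50, 34.6, 43.8, 67.8 and 14.8 at day 2 and, at day 14, 56.8, 43.7, 57.1, 57.1 and 35.1. The legs overlapped at day 2 and were separate at day 14. Col11a1 rose by 1.67 (SE 0.45, adjusted p = 0.00844). The proteoglycan lumican, Lum, rose likewise (1.02 to 2.31), a call lost with the fixed block (adjusted p = 0.0521), without animal 10 (adjusted p = 0.0534) and against sham muscles (adjusted p = 0.14).

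Sarcolipin, Sln, a small inhibitor of the calcium pump of the sarcoplasmic reticulum, had the largest fitted rise among genes whose pair differences did not overlap between the days (3.76% of all genes had higher and 5.48% lower non-overlapping differences). Signals in right legs were 147, 129, 126, 109 and 148 at day 2 and 1658, 1695, 942, 908 and 1009 at day 14. Signals in left legs were 63.7, 44.5, 37.8, 58.6 and 86.5 at day 2 and, at day 14, 87.7, 42.3, 40.7, 42.3 and 52.6. All right legs exceeded all left legs at each day. Sln rose by 3.26 (SE 0.55, adjusted p = 8.34e-06), passing 3.90 at day 7.

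Most oxidative genes were called lower on the right at both days, and few had a called change. All 44 tested genes of the respiratory chain and ATP synthase were lower at day 2, 41 at day 7 and 35 at day 14 (15.9%, 14.6% and 9.72% of all genes were). Their medians were -0.67, -0.46 and -0.39, and 3 rose (2.87% of all genes did). The tricarboxylic acid cycle had 19 and 14 of 20 lower at days 2 and 14, with 3 rises, and fatty acid uptake and oxidation 18 and 18 of 24, with 2 rises and 1 fall. With the actin ratio as a covariate, 30 and 9 of the 44 respiratory genes were lower at days 2 and 14. After quantile normalization 15 of the 44 rose (697 of 16029 genes did). Against sham muscles, of which only 3 were from day 2, 31 rose (970 of 16029 genes did). The muscle glucose transporter Slc2a4 (-0.83 and -0.60), the fatty acid carrier Fabp3 (-1.27 and -0.72) and the slow myosin light chain Myl3 (-1.82 and -1.49) were sustained with no called change. The day 14 pairs were uneven for Myl3, at -2.53 and -3.08 in animals 12 and 38 and -0.24 and 0.28 in 35 and 36. Fabp3 stood at -1.18 and -1.23 in animals 12 and 38 and at -0.09 and -0.19 in 35 and 36. The legs overlapped at day 14 for both, and for Myl3 at day 2 as well.

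Myl2, the regulatory light chain of slow fibres, was sustained and approached the left legs. Myl2 gave 216, 182, 174, 178 and 349 in right legs at day 2 and 854, 744, 1281, 2396 and 619.7 at day 14. Left legs gave 3425, 1722, 1926, 2199 and 620.2 at day 2 and, at day 14, 3369, 3491, 1491, 1934 and 4208. The legs were separate at day 2, with the left leg of animal 37 lowest of the left group, and overlapped at day 14. Myl2 rose by 1.65 (SE 0.37, adjusted p = 0.000955), a call lost with the fixed block (1.80, adjusted p = 0.119). Fast fibre proteins gave 12 of 18 lower at day 2 and 1 at day 14 (15.9% and 9.72% of all genes were), with no called change. With the actin ratio as a covariate 1 and none were lower. After quantile normalization 3 of them rose.

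Reversed genes were on opposite sides at the 2 days. Hsd11b1, the enzyme that regenerates active glucocorticoid, had 418, 241, 219.6, 214 and 249 in right legs at day 2 and 106, 78.6, 110.3, 66.6 and 73.9 at day 14. Left legs had 120.5, 139, 155, 147 and 128 at day 2 and, at day 14, 118, 149.8, 132, 109.9 and 105. Right legs were above left legs at day 2 and the groups overlapped at day 14, where 2 right legs reached the left range. Hsd11b1 fell by 1.39 (SE 0.19, adjusted p = 6.12e-08), from 0.90 to -0.50. The lysosomal aspartic protease Ctsd had separate legs at both days, at 4478 to 4830 on the right and 2777 to 3588 on the left at day 2, and 1814 to 2145 and 2394 to 2998 at day 14. Ctsd fell by 0.95 (SE 0.14, adjusted p = 9.54e-07).

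In the other direction, Klhl23, a kelch-repeat adaptor protein, had 93.3, 94.1, 89.4, 74.8 and 67.7 in right legs at day 2 and 369.7, 341, 232, 245 and 450.4 at day 14. Left legs had 151, 143, 145, 128 and 127 at day 2 and, at day 14, 186, 138, 184, 219.9 and 233. The right legs were the lower group at day 2, and at day 14 the lowest right leg fell within the left range. Klhl23 rose by 1.43 (SE 0.20, adjusted p = 1.7e-07). Cd55, which shields cells from complement, moved from -0.67 to 0.57 and rose by 1.24 (SE 0.22, adjusted p = 1.76e-05). With so few members, the class shrank to 8 genes at a threshold of 0.01.

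Nerve and regeneration genes gave a mixed picture. Chrne, the adult subunit of the acetylcholine receptor, was reversed, with right legs at 51.5 to 105 and left legs at 74.3 to 106 at day 2, and 133 to 223 and 98.2 to 153 at day 14. Chrne rose by 1.06 (SE 0.25, adjusted p = 0.00232). The receptor subunit Chrnb1 (-0.02 to 0.60) and the agrin receptor Lrp4 (-0.32 to 0.62) were late-only. The stress gene Gadd45a was early-only by its calls (0.62 to -0.51), a call for the change lost against sham muscles (adjusted p = 0.0748). Its legs overlapped at day 2, whereas every right leg lay below every left leg at day 14, with pair differences of -0.69 to -0.08. Chrna1, the subunit that rises on denervation, was called at day 2 (0.57) and not at day 14 (0.29), with no called change (adjusted p = 0.594). Of 19 genes of this list, 4 rose (2.87% of all genes did) and 1 fell, near the 5.31% of all genes.

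Myogenin, Myog, the factor of differentiating myoblasts, gave 288, 219.7, 318, 243 and 302 in right legs at day 2 and 81.5, 93, 88.8, 92.9 and 93.2 at day 14. Left legs gave 79.5, 80.8, 69.9, 47.6 and 65 at day 2 and, at day 14, 48.9, 59.6, 45.6, 49.7 and 31.6. All right legs exceeded all left legs at each day, and those of day 14 lay below those of day 2. Myog fell by 1.04 (SE 0.27, adjusted p = 0.00703). The fusion protein myomixer, Mymx, was early-only (1.65 to -0.36), and its change was not called against sham muscles (adjusted p = 0.438). The perinatal myosin Myh8 was 4.78 to 20.5 in right and 16.1 to 39.8 in left legs at day 2, and 20.7 to 47 and 9.47 to 24.9 at day 14, and rose by 1.73 (SE 0.54, adjusted p = 0.0294), a call lost without animal 7, 8, 37, 12 or 36 (adjusted p = 0.0555 to 0.134). Galanin, Gal, a neuropeptide, was higher on the right at day 2, at 73.5, 105, 146, 119.7 and 87.1 against 16.1, 16.7, 12, 13.2 and 29.5. At day 14 right legs had 4.88, 1.48, 26, 12 and 11.2 and left legs 14.8, 27.2, 17.5, 18.2 and 10.8, which overlapped. Gal fell by 3.06 (SE 0.38, adjusted p = 4.54e-09).

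**Figure D4:**
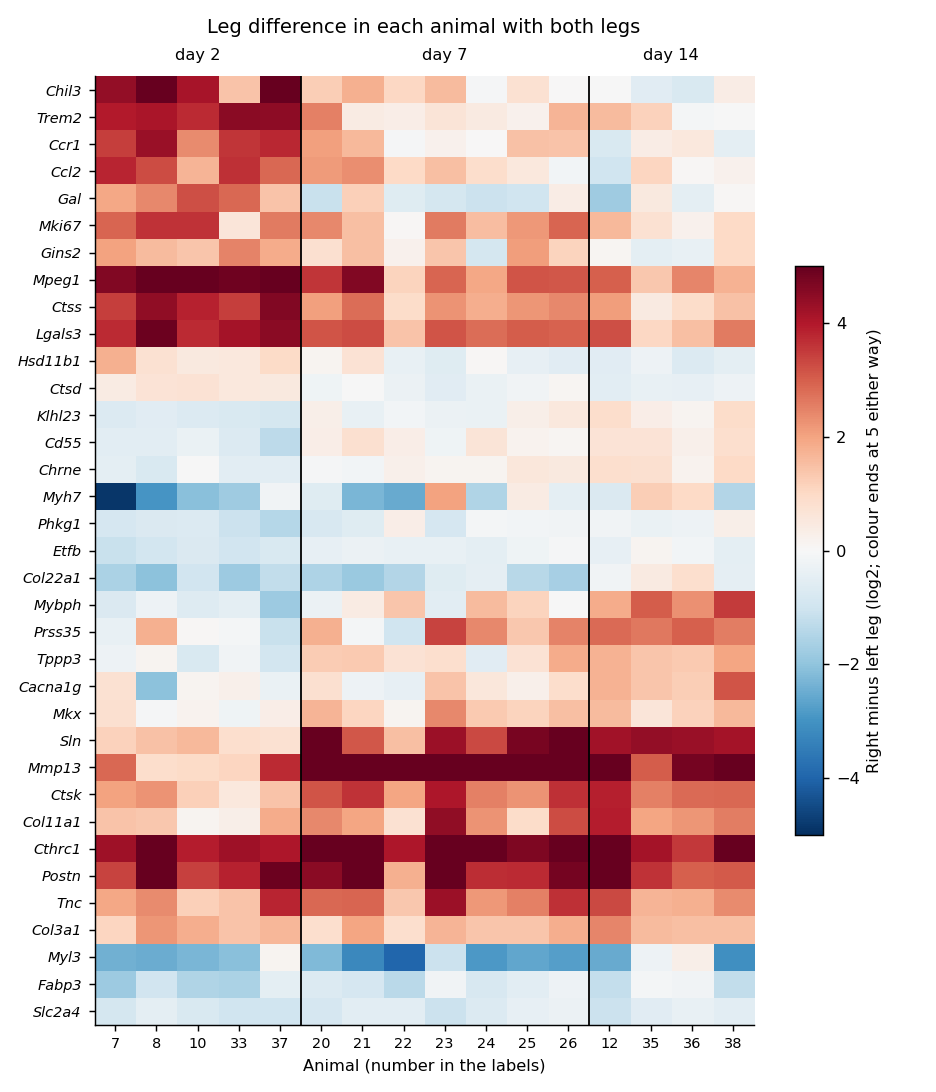
Right-minus-left log2 difference of 35 genes (rows) in each of the 16 tenotomy animals with both legs (columns, grouped by day); red is higher on the right, blue lower, and the colour scale ends at 5 either way. The upper rows fade from day 2 to day 14, the rows from Mybph to Col11a1 deepen, and Cthrc1, Postn, Tnc and Col3a1 are red in every animal.

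**Figure D5:**
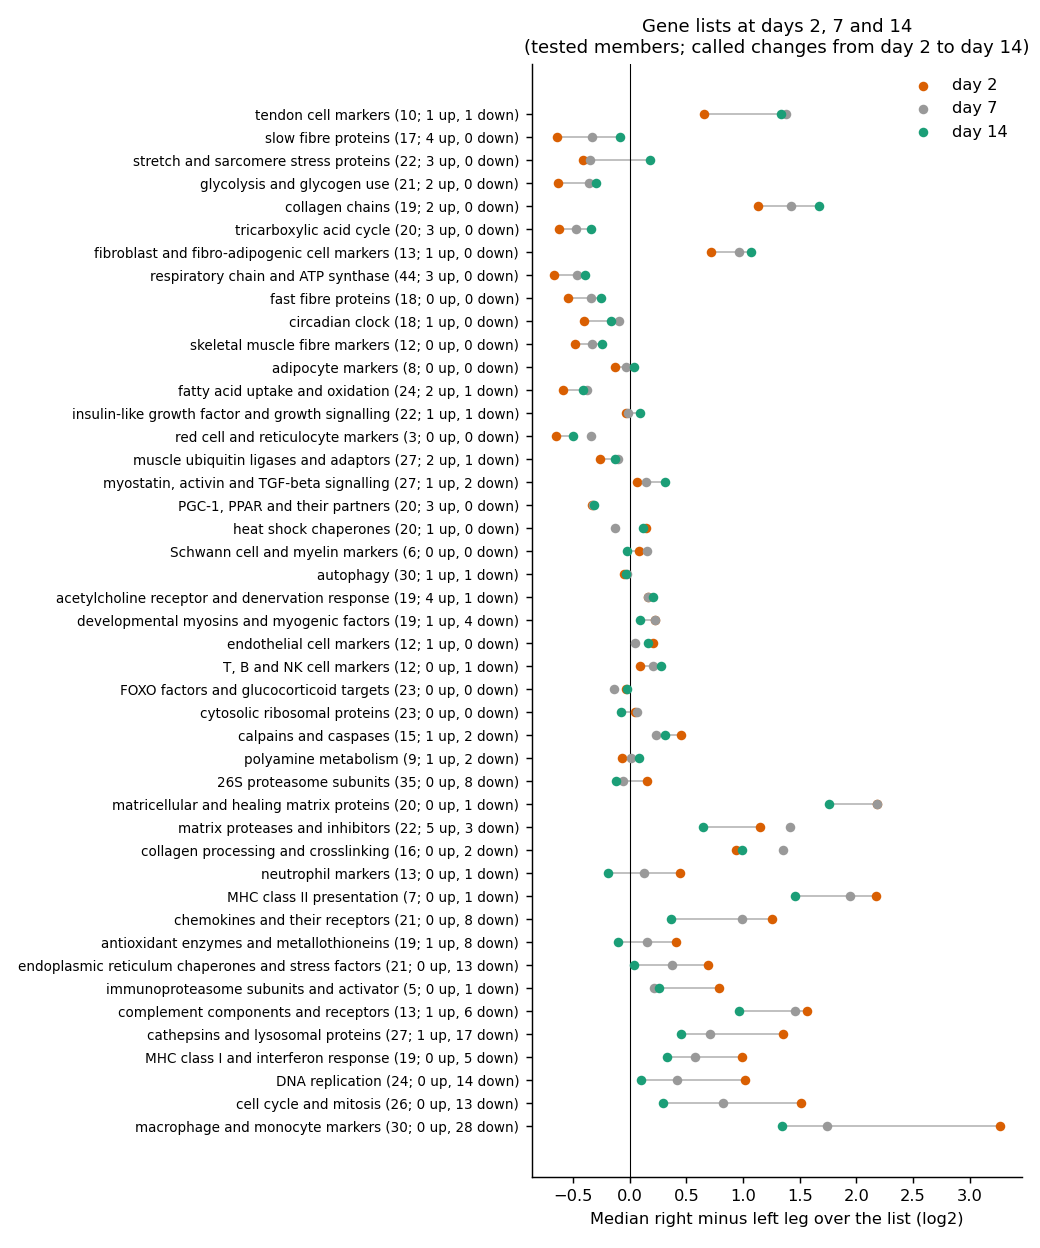
Median right-minus-left log2 difference of 45 gene lists at days 2, 7 and 14, ordered by the median change, with the number of tested members and of called rises and falls in brackets. Macrophage markers go from 3.27 to 1.34, and respiratory chain genes from -0.67 to -0.39.

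The same contrast in cast mice gave the test of what differed between the models. In casting, the change from day 2 to day 14 was called for 2295 genes (14.3%; 8.28% rose and 6.03% fell) in animals whose right leg wore the cast. With right minus left taken in both models, the changes differed for 1873 genes (11.7%), 618 more positive (3.86%) and 1255 more negative (7.83%) in the tenotomy animals. These signs compare treated with treated legs only if the right tendon was cut, as in the design text. If the left tendon was cut, as in the labels, the tenotomy change turns its sign: with left minus right taken there, an alternative chosen after seeing the data, 1142 genes differed (7.12%; 588 more positive, 3.67%, and 554 more negative, 3.46%). The right-minus-left difference of macrophage markers fell for 28 of 30 in the tenotomy animals and rose for 24 of 30 in the cast animals (8.28% of all genes rose there). Of these 30 markers 29 differed between the models with right minus left in both, all more negative after tenotomy, and 4, all more positive, with tenotomy turned. With right minus left in both, Chil3 (-6.83, adjusted p = 1.49e-05) and Ccr1 (-5.01, adjusted p = 6.38e-10) had the largest differences among the genes shown here, and with tenotomy turned they stood at 2.84 (adjusted p = 0.153) and 1.8 (adjusted p = 0.0497). Sln (4.15, adjusted p = 1.98e-06), Prss35 (2.63, adjusted p = 0.000469) and Klhl23 (1.98, adjusted p = 2.54e-09) differed in the other direction, and turned they stood at -2.37, -2.75 and -0.88 (adjusted p = 0.0158, 0.000526 and 0.0155). For Mybph (1.48, adjusted p = 0.232), Trim63 (0.09, adjusted p = 0.901) and Psma5 (-0.12, adjusted p = 0.791) the difference between the models did not pass the threshold. Turned, it did for all 3, at -4.77, 1.71 and 1.56 (adjusted p = 5.22e-06, 3.22e-05 and 8.98e-09). The models used animals numbered separately, so model and cohort cannot be told apart.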

How the data were processed

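RNA of gastrocnemius muscles was measured on 111 Affymetrix arrays, 1 muscle per array. The authors deposited linear signal intensities made with MAS5 in GCOS, per the submitters' processing notes; the versions are not given in the sources used here. The deposited intensities have a 2% trimmed mean of 99.955 to 99.965 on every array, so each array had been scaled to the same total, and they carry no detection calls.

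From these, log2(signal + 3.982) was computed, the constant being the 20th percentile of all values. Fold changes are on this scale, which understates those of dim genes. Of 45101 probe sets, 34958 had 1 gene in the platform annotation, 932 several and 9211 none, and 34754 symbols were updated through RefSeq. The probe set with the highest mean stood for its gene. Genes above an array's 40th percentile (9.65 to 17.84) on at least 5 arrays were kept, 16029 of 18194. limma 3.58.1 (R 4.3.3, statmod 1.5.0) was fitted to 16 groups over all arrays, with the animal as a random block (correlation 0.0965), an intensity trend and Benjamini-Hochberg adjustment over all genes at a threshold of 0.05. All adjusted p-values are from this fit or its alternatives. In the main fit they rest on the spread between arrays of the same group, pooled over the 16 groups, with the animal block taken into account. Whole-array measures were compared with exact permutation tests over pairs.

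The legs of an animal are paired by the animal number in the labels. In residuals, the mean correlation was 0.0701 within the 9 pairs (3 of them over 0.1) and -0.0112 over 74 combinations of different animals. Tested on simulated data for the change from day 2 to day 14 over 16029 genes, the fit recovered 62 of 100 planted changes of 1 and 86 of 100 of 2 on the log2 scale, with 6 false calls.

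The genes named are the 12 with the largest change in each direction whose pair differences do not overlap between the days, the 6 largest per class and direction, the 2 largest called members of each list in each direction, and a set of known atrophy, cell type and matrix genes. The members and gene lists were chosen with earlier results of these data known. Alternatives covered the block, the arrays fitted, scaling, the constant, filters, probe sets, array weights, RNA quality, thresholds and each animal left out.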

Additional observations from a re-analysis of the deposited data

Results flagged for a closer look

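Over 162 groups of pair differences examined, 8 held an animal far from the others, and chance alone marks about 1 group in 20. The mean neutrophil marker difference was -1.35 in day 2 animal 33, against 0.33 to 0.89 in the others. The cell cycle list stood at 0.93 in the same animal, against 1.53 to 1.74. The lymphocyte list stood at 0.74 in day 14 animal 38, against 0.12 to 0.22, and Myog at 1.45 there, against 0.85 to 0.90. The collagen list stood at 2.25 in day 14 animal 12, against 1.3 to 1.43, and Trim63 at -0.75 there, against -0.43 to -0.37. Cthrc1 stood at 5.36 in day 2 animal 8, against 3.91 to 4.24. Myl2 stood at -0.82 in day 2 animal 37, against -3.97 to -3.21.

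The change from day 2 to day 14 differed between tenotomy and casting for 26 of the 36 genes examined, by the contrast of the changes in the limma fit (11.7% of all genes). Most of the 36 genes were picked for their change in the tenotomy animals, which is part of this contrast. A share above that of all genes therefore follows in part from the choice. The values below take right minus left in both models and compare treated legs only if the right tendon was cut, on which the sources conflict. Tenotomy minus casting was negative for the immune genes Chil3 (-6.83), Ccr1 (-5.01), Ccl2 (-4.72), Mpeg1 (-4.45) and Trem2 (-4.18). It was negative as well for the dividing-cell genes Mki67 (-3.39) and Gins2 (-2.91), for Gal (-3.09), the chaperones Sdf2l1 (-2.21) and Pdia3 (-1.37), Myog (-1.72), Hsd11b1 (-1.58) and Ctsd (-0.70). It was positive for Sln (4.15), Myh7 (2.99) and Myl2 (1.96) of the fibre, and for Mmp13 (2.99), Col22a1 (1.94), Col11a1 (1.71) and Ctsk (1.68) of the matrix. The others were Prss35 (2.63), Klhl23 (1.98), Tppp3 (1.60), Chrne (1.17), Etfb (0.91) and Phkg1 (0.74). Their adjusted p-values ran from 6.38e-10 for Ccr1 to 0.0452 for Mmp13. With left minus right taken in the tenotomy animals instead, 23 of the 36 genes differed (7.12% of all genes), a share raised by the same choice. Of the 36, 16 genes were called both ways, all with opposite signs. Opposite signs arise by construction wherever the tenotomy change is larger in size than the casting change, so they are no separate result.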

How the results depend on the processing

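The count of 1311 called changes ranged from 963 to 1538 over the planned fits. With the animal pairing as a fixed replicate block it was 963, of which 815 were shared with the main result, and with no replicate block 1056, all shared. With the fixed block 92 of 121 named genes with a called change kept the call, and after quantile normalization 120. Counts that moved by over 1.5 times were as follows. At a threshold of 0.01 there were 435 early-only, 64 late-only and 8 reversed genes. The fixed block gave 66 late-only genes, the actin ratio as a covariate 1796 sustained genes, and the 20 arrays alone 141 genes between the left legs of the days. Right legs against sham muscles, an alternative chosen after seeing the data, gave 2050 called changes, 5768 genes at day 14, 488 late-only and 106 reversed genes. With tenotomy taken as left minus right, also chosen after seeing the data, 1142 genes differed from casting. With each animal left out in turn, the left-leg count ranged from 80 to 267, called changes from 983 to 1312, and late-only genes from 106 to 126. The cause of these shifts was not tested.

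Among the 121 named genes with a called change, signs turned only for Perm1 (-0.05) and Pdlim5 (-0.09) when the probe sets of a gene were averaged. Among changes that were not called, signs turned for Igf1 with that average (-0.06), for Cd27 (0.07) and Prima1 (0.02) without arrays of raised low signals, for Col3a1 (-0.09) and Ccl8 (0.02) after quantile normalization, and for Ccl8 after centring (0.03). Against sham they turned for Sfrp2 (-0.04), Igf1 (-0.21), Col1a1 (0.82) and Ppargc1a (-0.30). Leaving out animals gave ranges across 0 for Mfap4 (-0.47 to 0.65), Timp1 (-0.73 to 0.20), Sfrp2 (-0.08 to 0.44), Cd27 (-0.37 to 0.14), Myl3 (-0.12 to 0.82), Col1a1 (-0.49 to 0.15), Col3a1 (-0.09 to 0.23), Tnc (-0.18 to 0.51), Ccl8 (-0.49 to 0.24) and Scx (-0.11 to 0.30). Signals near the added constant of 3.982, as for Prss35 and Chil3, limit the size of their differences.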

Other observations

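Signalling and stress lists outside the groups described above held few called changes (2.87% of all genes rose and 5.31% fell). In the TGF-beta family, 1 of 27 genes rose and 2 fell: the ligand Tgfb1 was higher on the right at both days (2.03 and 0.96) and fell by 1.06 (SE 0.29, adjusted p = 0.00842), whereas Tgfb2 went from -0.56 to 0.34 and rose by 0.90 (SE 0.18, adjusted p = 0.000321). The Tgfb1 call was lost with the mean of its probe sets (adjusted p = 0.106) and without animal 37 (adjusted p = 0.0601), and the Tgfb2 call against sham muscles (adjusted p = 0.0521). The repressor Tgif1 was early-only (1.44 to 0.15). In polyamine metabolism, 1 of 9 genes rose and 2 fell: spermidine synthase, Srm, was early-only (0.92 to 0.25), the acetyltransferase Sat1 was sustained (1.37 and 0.70), and the antizyme Oaz2 was reversed (-0.37 to 0.22). The fall of Sat1 lost its call without animal 38 (adjusted p = 0.101) and without arrays of raised low signals (adjusted p = 0.0725).

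The growth factor carrier Igfbp3 was called lower on the right at day 2 and not at day 14 (-0.76 to 0.20). The translation repressor Eif4ebp1 was called higher at day 2 and not at day 14 (0.66 to -0.22). Among 22 genes of growth signalling 1 rose and 1 fell. Of 15 calpain and caspase genes 1 rose and 2 fell, among them the inflammatory caspase Casp1 (2.09 to 0.67), a call lost in 5 settings, the fixed block among them (adjusted p = 0.0591). Of 30 autophagy genes, Atg7 fell (0.47 to -0.28), though not against sham muscles (adjusted p = 0.302), and the mitophagy receptor Bnip3 rose (-0.52 to 0.03). Of 18 clock genes, 9 were lower on the right at day 2 (15.9% of all genes were) and 3 at day 14 (9.72% of all). The repressor Cry2 rose (-0.61 to 0.11), a call lost in 6 settings (adjusted p up to 0.115). Of 22 stretch and sarcomere stress genes 3 rose, among them Smpx (-0.43 to 0.23), and of 12 endothelial markers the receptor Kdr rose (-0.77 to 0.05), a call lost in 8 settings, among them no replicate block (adjusted p = 0.0616) and leaving out animal 35 (adjusted p = 0.131). In limma no change was called among 23 FOXO and glucocorticoid target genes and 23 cytosolic ribosomal protein genes.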
